A study of Homo sapiens with 6 samples.

Results

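The 43 genes described here encode subunits of ATP-dependent chromatin remodelers other than the ARID subunits. They were taken by symbol from a fixed list and not by their values, and all 43 had a row among the 57232 genes measured. Of these genes, 23 belong to SWI/SNF (BAF) complexes, and the other 20 belong to the ISWI, CHD and INO80 families or encode the RUVBL ATPases. Remodelers use ATP to slide, eject or exchange nucleosomes, and each complex joins an SNF2-type motor to subunits that read histone marks, bind DNA or hold the assembly together. Many positions in a complex can be filled by either of a pair of paralogs, so the makeup of a complex can differ between cell types. SWI/SNF genes are often mutated in cancer, and ARID1B, one of the mutually exclusive ARID subunits of the BAF form, has been linked to senescence of fibroblasts.

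RNA-seq was performed on IMR90 cells, a strain of human fetal lung fibroblasts. The ARID1B group (3 libraries) carried an ARID1B cDNA and the vector group (3 libraries) carried the empty vector, and both groups were infected at passage 13, selected with puromycin until day 4 and collected on day 6. The ARID1B group therefore models an excess of 1 SWI/SNF subunit in 1 cell strain, in cells that still have their own ARID1B gene. The comparison asked whether the genes for the other remodeler subunits changed in RNA level when ARID1B was supplied. Recovered library totals were 70022493 to 91924514 reads or fragments in the ARID1B group and 63386813 to 90548577 in the vector group, and a tested member held 796 to 24421 of them in a library, so counting error was small. Levels are given as deposited, in FPKM, which is reads or fragments per kilobase of gene, scaled to library size, and values of a group are listed in the order of replicates 1, 2 and 3. In RNA from whole cultures, fewer cells of a kind and less RNA per cell cannot be told apart.

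ARID1B itself was at 32.5, 21.0 and 28.3 FPKM in the ARID1B libraries, against 2.29, 1.31 and 2.05 FPKM in the vector libraries (log2 change 3.29, SE 0.208, limma adjusted p = 0.0255). RNA from the cDNA and from the cells' own gene could not be separated in these values. Fibroblast identity fitted the label, since all 10 fibroblast markers reached 1 FPKM and their summed level was 1930 to 2694 FPKM in ARID1B and 1957 to 2658 FPKM in vector libraries. None of the 8 epithelial or 6 blood markers reached 1 FPKM, 4 of the epithelial ones were at 0 throughout, and of 5 endothelial markers TEK alone reached it. Of 5 smooth muscle markers 3 reached 1 FPKM. The 5 summed to 83.9 to 149 FPKM in ARID1B and 63.1 to 112 FPKM in vector libraries. These ranges overlapped, and any part of these genes in the results below was not tested. The sum of 8 genes of dividing cells was 88.2, 45.3 and 81.8 FPKM in ARID1B libraries, against 33.9, 99.8 and 43.0 FPKM in vector libraries, and its part in the results below was not tested. The library of vector replicate 2 was unlike the rest. In a principal component analysis its first coordinate was 48.5, the other libraries lay between -20.0 and 3.63, and this component took 63.8% of the variance. Replicate 3 of each group was close to a mixture of replicates 1 and 2 of its own group, with 69.3% of replicate 1 in the ARID1B group and 81.9% in the vector group. After that mixture the median remainder of the members in replicate 3 was 0.0298 in ARID1B and 0.0245 in vector libraries (absolute log2), against 0.193 and 0.506 between replicates 1 and 2 of the same groups. The libraries are described as biological replicates, and the p-values given here measure the spread between them as deposited. With replicate 3 so close to a mixture, the 3 libraries of a group may not vary as independent ones would. This limit holds for the standard errors, SDs, p-values and separation of groups in every comparison below. Values without vector replicate 2 are given beside the changes of the tested members and rest on vector replicates 1 and 3.

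No member changed past the threshold. Of the 43 genes, 40 had an average of 1 FPKM or more and were tested, and 0 of the 40 passed an adjusted p of 0.05 in limma, beside 0.0288% of the 10416 genes tested (3 genes, ARID1B among them). The changes, as ARID1B minus vector on log2(FPKM + 1), ran between -0.40 and 0.47 with a median of 0.01, close to the median of all genes tested (-0.02). They were above 0 in 21 members and below 0 in 19, and 47.6% of all genes were above 0. The limma voom fit on recovered reads also called 0 members. At an unadjusted p under 0.05 that fit had 3 of 40 members, beside 1084 of 10416 genes. In the main comparison without the adjustment, 4 of 40 members (10%) had a limma p under 0.05, beside 10.6% of all genes. These were DPF2, SMARCB1, SMARCD3 and SMARCD2, all SWI/SNF subunits and all lower in ARID1B cells, where 5.94% of genes were lower and 4.64% higher at that p. The groups did not overlap in 8 members (20%), beside 20.5% of all genes. Of these 8, 6 were lower in ARID1B cells (SMARCA4, SMARCB1, SMARCD1, SMARCD2, SMARCD3 and DPF2, or 15% of the members beside 11.1% of genes) and 2 were higher (BAZ1A and CHD1, or 5% beside 9.44%). Over both directions together, the shares of members were near those of genes at large. With a median standard error of 0.157, differences as small as those seen in most members were not detectable.

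**Figure D1:**
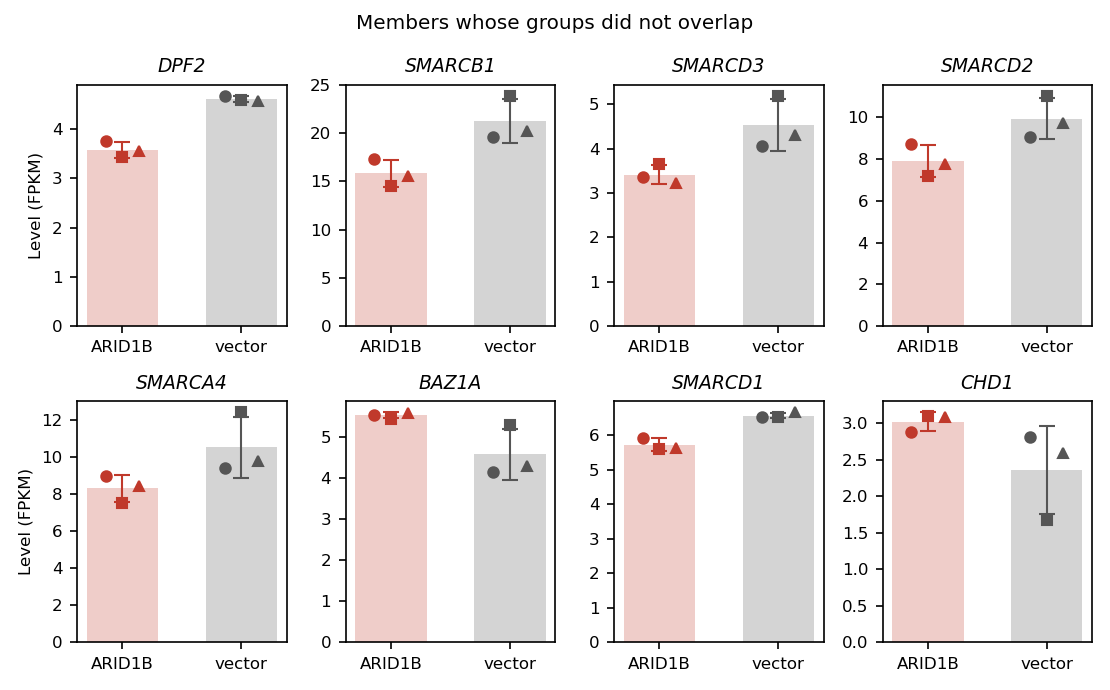
Level in FPKM (vertical axes from 0) of the 8 tested members whose groups did not overlap. ARID1B libraries are on the left (red) and vector libraries on the right (gray). Circles, squares and triangles are replicates 1, 2 and 3, bars are means and whiskers are SD (n = 3). SMARCB1, SMARCD1, SMARCD2, SMARCD3, SMARCA4 and DPF2 were lower in every ARID1B library, and BAZ1A and CHD1 were higher.

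Leaving out vector replicate 2 reduced the standard errors (median 0.0920) and moved the balance of directions. The vector group was then replicates 1 and 3, of which replicate 3 was close to a mixture with 81.9% of replicate 1, so the smaller standard errors, the p-values and the separation of groups in that comparison rest on vector libraries that may not vary as independent ones would. In that comparison 0 of 40 members passed the adjusted threshold, beside 3.11% of all genes (324 genes), and the smallest adjusted p of a member was 0.0694 (BAZ1A). Only 15 members were then above 0 and 25 were below, with a median of -0.06 (47.8% of all genes were above 0), and 12 members turned direction. The groups did not overlap in 20 members (50%), beside 42.7% of all genes, of which 17 were lower (42.5% beside 23.9%) and 3 were higher (7.5% beside 18.8%). A limma p under 0.05 was reached by 10 members (25%, beside 23.7% of genes). Of these, 9 of the 40 tested members were lower in ARID1B cells, beside 13.7% of genes that were lower at that p.

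**Figure D2:**
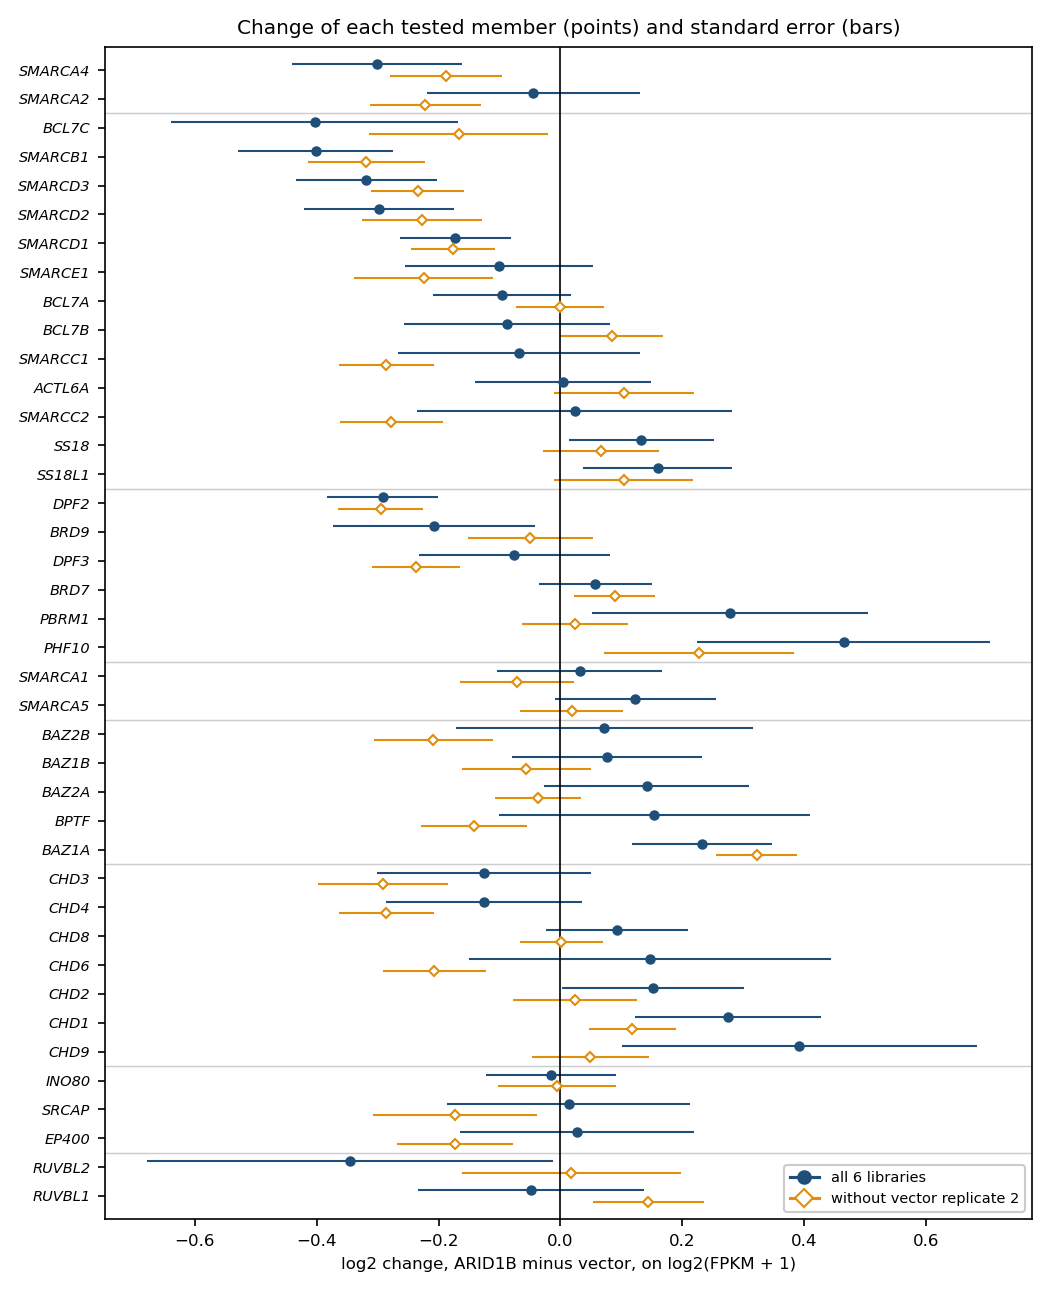
Log2 change of each tested member, ARID1B minus vector, on log2(FPKM + 1) (horizontal axis), with all 6 libraries (filled circles) and without vector replicate 2 (open diamonds). Bars are standard errors from limma, gray lines separate the classes, and within a class members are ordered by the change. The changes lie between -0.40 and 0.47, and 12 of the 40 members cross 0 when vector replicate 2 is left out.

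Promoter sequences are shown for SMARCB1 and DPF2, the members with the smallest p among those that were lower, for SMARCD1, whose level was nearly the same within each group, and for CHD1, which was higher. They are RefSeq sequences (GRCh38.p14) of the coding strand, 250 bases before to 50 after an annotated start, and 36 of the 43 members were matched, with 56 promoters in all. Capitals mark matches on either strand to 5 short motifs, which may overlap. The GC box was searched as GGGCGG. The ETS motif was searched as CCGGAAG. The NRF1 motif was searched as GCGC followed, after 1 base of any kind, by TGCGC. The CCAAT box and the TATA box (TATAAA) were searched as they are written. The promoters lie at chr22:23786716-23787015 on the plus strand (SMARCB1), chr11:65333602-65333901 on the plus strand (DPF2), chr12:50085092-50085391 on the plus strand (SMARCD1) and chr5:98928958-98929257 on the minus strand (CHD1).
SMARCB1: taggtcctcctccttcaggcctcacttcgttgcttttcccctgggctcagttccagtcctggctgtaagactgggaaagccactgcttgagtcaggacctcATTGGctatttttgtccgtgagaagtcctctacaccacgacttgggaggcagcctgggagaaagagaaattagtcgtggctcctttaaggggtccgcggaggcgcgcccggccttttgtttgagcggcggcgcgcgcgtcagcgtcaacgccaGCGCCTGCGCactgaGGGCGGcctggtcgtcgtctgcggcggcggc
DPF2: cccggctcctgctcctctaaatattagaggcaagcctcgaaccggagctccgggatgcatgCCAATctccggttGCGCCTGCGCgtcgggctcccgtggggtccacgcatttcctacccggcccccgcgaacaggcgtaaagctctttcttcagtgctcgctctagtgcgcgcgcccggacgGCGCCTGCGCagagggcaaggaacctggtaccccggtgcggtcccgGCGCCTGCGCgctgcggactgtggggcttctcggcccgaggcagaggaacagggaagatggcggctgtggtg
SMARCD1: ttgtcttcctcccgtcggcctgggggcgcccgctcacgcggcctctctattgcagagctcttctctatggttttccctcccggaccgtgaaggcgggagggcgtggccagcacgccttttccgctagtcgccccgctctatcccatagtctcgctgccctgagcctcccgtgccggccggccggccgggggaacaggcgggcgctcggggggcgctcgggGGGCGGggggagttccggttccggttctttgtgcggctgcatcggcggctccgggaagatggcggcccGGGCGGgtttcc
CHD1: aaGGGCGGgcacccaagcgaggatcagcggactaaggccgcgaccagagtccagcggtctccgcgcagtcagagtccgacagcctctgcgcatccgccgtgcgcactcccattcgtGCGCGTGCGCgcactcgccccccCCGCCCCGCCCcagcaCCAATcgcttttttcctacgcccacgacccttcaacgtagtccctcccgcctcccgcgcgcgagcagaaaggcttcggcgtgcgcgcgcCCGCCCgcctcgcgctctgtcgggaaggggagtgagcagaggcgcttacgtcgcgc
A GC box was found in 73.2% of the member promoters, beside 45.0% of 35116 RefSeq promoters, and the NRF1 motif was found in 17.9%, beside 5.78%. The DPF2 promoter held 3 matches to the NRF1 motif, that of CHD1 held 4 GC boxes, that of SMARCD1 held 2, and that of SMARCB1 held 1 GC box and 1 NRF1 motif. CCAAT (33.9% beside 34.6%) and ETS (8.93% beside 10.3%) had similar shares in both sets, and the TATA box was in 3.57% of member promoters, beside 11.5%. The median GC content was 67.2% in member promoters and 58.7% in all promoters, and the median number of CG dinucleotides was 27 and 14. The set of all promoters was not matched for GC content or for expression in these cells. Of the 36 matched members, 22 had 1 promoter, and the others were counted more than once. Letter matches of this kind do not show binding.

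The SWI/SNF motors SMARCA4 (BRG1) and SMARCA2 (BRM) are alternative ATPases of the complex. SMARCA4 was at 8.98, 7.53 and 8.42 FPKM in ARID1B libraries, against 9.39, 12.4 and 9.79 FPKM in vector libraries. Every ARID1B library was below every vector library, the nearest being 8.98 and 9.39 FPKM, and the change did not pass the test (log2 change -0.30, SE 0.139, limma adjusted p = 0.509). Without vector replicate 2 the change of SMARCA4 was -0.19 (limma adjusted p = 0.287), and it was -0.18 after a correction of each library for transcript length and GC content. SMARCA2 was at 3.98, 4.72 and 4.19 FPKM in ARID1B libraries, against 5.41, 3.27 and 4.94 FPKM in vector libraries. These groups overlapped, and vector replicate 2 was the lowest of the 6 libraries while the other vector libraries were the highest (log2 change -0.04, SE 0.174, limma adjusted p = 0.934). Without that library the change of SMARCA2 was -0.22 (limma adjusted p = 0.217) and the groups did not overlap, and after the length and GC correction it was -0.22. SMARCA4 exceeded SMARCA2 in all 6 libraries, with ratios of 2.25, 1.59 and 2.01 in ARID1B libraries and 1.74, 3.80 and 1.98 in vector libraries, and the ratios of the groups overlapped.

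Among the SWI/SNF core and accessory subunits, 13 of 14 were tested, of which 4 were above and 9 below 0 with a median change of -0.10, beside -0.02 for all genes. SMARCB1 (SNF5), a core subunit that contacts the nucleosome and is lost in rhabdoid tumors, was at 17.3, 14.5 and 15.6 FPKM in ARID1B libraries, against 19.6, 23.9 and 20.2 FPKM in vector libraries. All ARID1B libraries were below all vector libraries (log2 change -0.40, SE 0.127, limma adjusted p = 0.381). The change of SMARCB1 was -0.32 (limma adjusted p = 0.128) without vector replicate 2 and -0.29 after the length and GC correction. The SMARCD genes encode the alternative BAF60 subunits, which link the complex to transcription factors. SMARCD1 was at 5.94, 5.59 and 5.64 FPKM in ARID1B libraries, against 6.53, 6.53 and 6.66 FPKM in vector libraries, the narrowest groups among these 3 genes (log2 change -0.17, SE 0.0915, limma adjusted p = 0.561). SMARCD2 was at 8.75, 7.20 and 7.77 FPKM in ARID1B libraries, against 9.07, 11.03 and 9.74 FPKM in vector libraries (log2 change -0.30, SE 0.123, limma adjusted p = 0.471). SMARCD3 was at 3.37, 3.65 and 3.23 FPKM in ARID1B libraries, against 4.06, 5.18 and 4.32 FPKM in vector libraries (log2 change -0.32, SE 0.116, limma adjusted p = 0.421). For all 3 paralogs the highest ARID1B library was below the lowest vector library, and none passed the adjusted threshold. Without vector replicate 2 the log2 changes were -0.18 for SMARCD1, -0.23 for SMARCD2 and -0.23 for SMARCD3, so their direction did not rest on that library. After the length and GC correction they were -0.10, -0.12 and -0.21 in the same order.

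The scaffold subunits SMARCC1 (BAF155) and SMARCC2 (BAF170) dimerize to nucleate the complex. SMARCC1 averaged 15.4 ± 0.168 FPKM in ARID1B and 16.5 ± 4.29 FPKM in vector libraries (mean and SD, n = 3 each, also below), and SMARCC2 averaged 8.71 ± 0.596 FPKM in ARID1B and 8.93 ± 3.17 FPKM in vector libraries. Vector replicate 2 held the lowest value of both, at 11.7 FPKM for SMARCC1 and 5.29 FPKM for SMARCC2, and the other vector libraries held the highest. Their log2 changes were -0.07 and 0.02 with all libraries and -0.29 and -0.28 without vector replicate 2, where the limma adjusted p was 0.109 for SMARCC1 and 0.131 for SMARCC2. SMARCE1 (BAF57), a subunit with an HMG domain, averaged 5.45 ± 0.711 FPKM in ARID1B and 5.94 ± 1.02 FPKM in vector libraries with overlapping groups (log2 change -0.10). Its change was -0.22 (limma adjusted p = 0.299) without vector replicate 2, where the groups did not overlap, and -0.32 after the length and GC correction. ACTL6A, the actin-like subunit of dividing cells that is shared with other remodelers, averaged 6.35 ± 0.859 FPKM in ARID1B and 6.33 ± 0.917 FPKM in vector libraries, a log2 change of 0.00, or 0.10 without vector replicate 2. Its neuronal paralog ACTL6B had 0 reads in each library, which allows up to 3 reads per library (counting error only).

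The BCL7 proteins are small accessory subunits. BCL7A averaged 1.40 ± 0.109 FPKM in ARID1B and 1.58 ± 0.306 FPKM in vector libraries, BCL7B averaged 3.94 ± 0.321 FPKM in ARID1B and 4.33 ± 1.17 FPKM in vector libraries and BCL7C averaged 6.31 ± 1.10 FPKM in ARID1B and 8.87 ± 3.01 FPKM in vector libraries. The BCL7C change of -0.40 (SE 0.236) was the lowest of all members, but vector replicate 2 alone was at 12.3 FPKM while the other 5 libraries lay between 5.09 and 7.63 FPKM, and without it the change was -0.17 (limma adjusted p = 0.546). SS18, the subunit fused to SSX genes in synovial sarcoma, averaged 8.42 ± 0.658 FPKM in ARID1B and 7.60 ± 0.811 FPKM in vector libraries, and its paralog SS18L1 (CREST) averaged 1.92 ± 0.359 FPKM in ARID1B and 1.60 ± 0.172 FPKM in vector libraries. Both had overlapping groups. Without vector replicate 2 the changes were 0.00 for BCL7A, 0.08 for BCL7B, 0.07 for SS18 and 0.10 for SS18L1.

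The PHD finger and bromodomain subunits define the forms of SWI/SNF. DPF2, a PHD finger subunit of the BAF form, was at 3.75, 3.43 and 3.56 FPKM in ARID1B libraries, against 4.67, 4.59 and 4.57 FPKM in vector libraries. The groups were narrow and separate, and DPF2 had the smallest p of all members, yet it missed the threshold once adjusted over all genes (log2 change -0.29, SE 0.0908, limma adjusted p = 0.372). The difference was as large without vector replicate 2, at -0.29 (limma adjusted p = 0.0884), and was -0.32 after the length and GC correction. DPF3 averaged 2.95 ± 0.170 FPKM in ARID1B and 3.21 ± 0.769 FPKM in vector libraries with overlapping groups (log2 change -0.08), and its change without vector replicate 2 was -0.24 (limma adjusted p = 0.131). DPF1, known mostly from neurons, was between 0.167 and 0.753 FPKM and was not tested. PHF10, PBRM1 and BRD7 are subunits of the PBAF form. PHF10 had the highest change of all members (0.47, SE 0.240), with an average of 6.67 ± 1.20 FPKM in ARID1B and 4.67 ± 1.59 FPKM in vector libraries. Its lowest value, 2.97 FPKM, was that of vector replicate 2, and without that library the change was 0.23 (limma adjusted p = 0.436). PBRM1 averaged 7.12 ± 0.458 FPKM in ARID1B and 5.89 ± 1.94 FPKM in vector libraries, with a log2 change of 0.28 that was 0.02 without vector replicate 2. BRD7 averaged 6.96 ± 0.0594 FPKM in ARID1B and 6.65 ± 0.294 FPKM in vector libraries, with changes of 0.06 and, without that library, 0.09. BRD7 was the most even member, as its highest library was 1.09 times its lowest. BRD9, a bromodomain subunit of the noncanonical form, averaged 2.45 ± 0.327 FPKM in ARID1B and 3.02 ± 0.808 FPKM in vector libraries, again with overlapping groups, and its change was -0.21 with all libraries and -0.05 without vector replicate 2.

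Of the 21 tested SWI/SNF members, 7 were above 0 and 14 were below (median -0.09), and without vector replicate 2 the same counts were found with a median of -0.18. The 19 tested members of the other families had 14 above 0 and 5 below (median 0.08), against 8 and 11 without vector replicate 2 (median -0.04). After the length and GC correction 6 SWI/SNF members were above 0 and 15 below (median -0.12). The others then had 5 above 0 and 14 below (median -0.03), so both sets were mostly below 0. Of all genes, 47.6% were above 0 with all libraries, 47.8% without vector replicate 2 and 44.7% after the correction. Neither set held a gene past the threshold, and the difference between the sets was not tested.

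**Figure D3:**
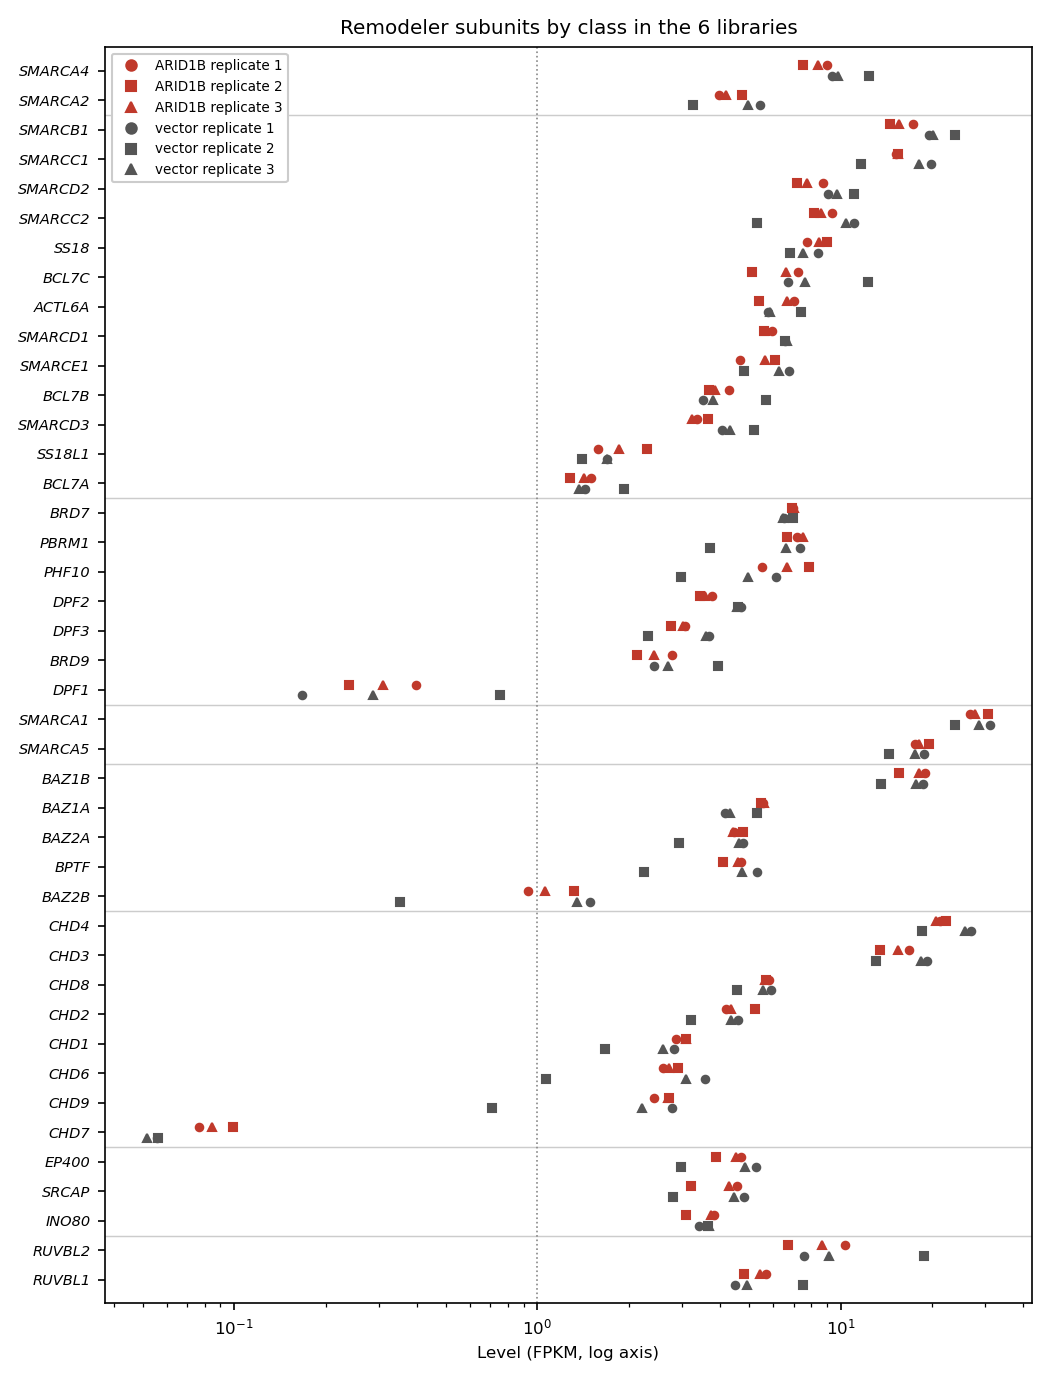
Level of the 42 members with reads in each library (FPKM, log axis). In each row the upper points (red) are ARID1B libraries and the lower points (gray) are vector libraries, with circles, squares and triangles for replicates 1, 2 and 3. Gray lines separate the classes and the dotted line marks the 1 FPKM needed for testing. SMARCA1 was the highest ATPase gene (28.1 FPKM on average), CHD7 the lowest (0.0705 FPKM), and vector replicate 2 (gray squares) is often at the edge of a row.

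The ISWI motors SMARCA5 (SNF2H) and SMARCA1 (SNF2L) slide nucleosomes into regular arrays. SMARCA5 was at 17.6, 19.6 and 18.1 FPKM in ARID1B libraries, against 18.8, 14.4 and 17.5 FPKM in vector libraries. SMARCA1 was at 26.8, 30.6 and 27.8 FPKM in ARID1B libraries, against 31.1, 23.9 and 28.6 FPKM in vector libraries. The groups of both overlapped, with vector replicate 2 the lowest library in each, and their log2 changes were 0.12 (SE 0.132) and 0.03 (SE 0.136). Without that library they were 0.02 for SMARCA5 and -0.07 for SMARCA1, and after the length and GC correction -0.09 and -0.11. SMARCA1 exceeded SMARCA5 in every library. Among the ISWI partners, BAZ1A (ACF1), which spaces nucleosomes together with SMARCA5, was at 5.54, 5.46 and 5.60 FPKM in ARID1B libraries, against 4.15, 5.30 and 4.31 FPKM in vector libraries. Its ARID1B libraries were close to each other and above all vector libraries, the nearest being vector replicate 2 (log2 change 0.23, SE 0.115, limma adjusted p = 0.534). Without that library the change was 0.32 (limma adjusted p = 0.0694), while after the length and GC correction it was 0.06.

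Of the other ISWI partners, BAZ1B (WSTF), deleted in Williams syndrome, averaged 17.6 ± 1.80 FPKM in ARID1B and 16.7 ± 2.71 FPKM in vector libraries. BPTF, the large subunit of NURF that reads methylated histone H3, averaged 4.45 ± 0.305 FPKM in ARID1B and 4.09 ± 1.62 FPKM in vector libraries. BAZ2A (TIP5), which silences ribosomal RNA genes, averaged 4.54 ± 0.186 FPKM in ARID1B and 4.10 ± 1.02 FPKM in vector libraries, and BAZ2B averaged 1.10 ± 0.197 FPKM in ARID1B and 1.07 ± 0.622 FPKM in vector libraries. All 5 partners were above 0 with all libraries (median 0.14), but without vector replicate 2 BAZ1A alone was above 0 and the median was -0.06, with -0.06 for BAZ1B, -0.14 for BPTF, -0.04 for BAZ2A and -0.21 for BAZ2B. Vector replicate 2 was the lowest library for BAZ1B, BPTF, BAZ2A and BAZ2B.

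CHD remodelers combine an SNF2-type motor with paired chromodomains. CHD4, the main ATPase of the NuRD deacetylase complex, was at 21.3, 22.3 and 20.6 FPKM in ARID1B libraries, against 27.0, 18.6 and 25.7 FPKM in vector libraries. CHD3, its alternative, was at 16.8, 13.5 and 15.4 FPKM in ARID1B libraries, against 19.2, 13.04 and 18.4 FPKM in vector libraries. In both genes vector replicates 1 and 3 were above all ARID1B libraries and vector replicate 2 was below all of them. The log2 changes were -0.13 (SE 0.161) for CHD4 and -0.13 (SE 0.175) for CHD3, and without vector replicate 2 they were -0.29 for each (limma adjusted p 0.109 and 0.184). The ratio of CHD3 to CHD4 was 0.786, 0.606 and 0.748 in ARID1B libraries, against 0.712, 0.702 and 0.716 in vector libraries. It was even over the vector libraries, although vector replicate 2 differed from the others in the level of both genes.

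CHD1, which binds methylated histone H3 at active genes, was at 2.87, 3.10 and 3.09 FPKM in ARID1B libraries, against 2.81, 1.67 and 2.59 FPKM in vector libraries. The groups did not overlap, although the nearest libraries were only 2.87 and 2.81 FPKM (log2 change 0.27, SE 0.153, limma adjusted p = 0.581). The change of CHD1 was 0.12 (limma adjusted p = 0.382) without vector replicate 2 and 0.05 after the length and GC correction. CHD2, in which mutations cause an epileptic encephalopathy, was at 4.18, 5.22 and 4.33 FPKM in ARID1B libraries, against 4.58, 3.20 and 4.36 FPKM in vector libraries. Its groups overlapped (log2 change 0.15, SE 0.149, limma adjusted p = 0.738), and its change was 0.02 without vector replicate 2 and 0.00 after the length and GC correction. CHD8, mutated in some forms of autism, was at 5.79, 5.69 and 5.65 FPKM in ARID1B libraries, against 5.87, 4.54 and 5.53 FPKM in vector libraries. Apart from vector replicate 2, its values lay between 5.53 and 5.87 FPKM (log2 change 0.09, SE 0.116, limma adjusted p = 0.786), and without that library its change was 0.00.

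CHD6 was at 2.60, 2.92 and 2.73 FPKM in ARID1B libraries, against 3.57, 1.07 and 3.08 FPKM in vector libraries. CHD9 was at 2.43, 2.71 and 2.69 FPKM in ARID1B libraries, against 2.78, 0.707 and 2.21 FPKM in vector libraries. In these paralogs of CHD8 vector replicate 2 was far below the other 5 libraries, and the changes were 0.15 (SE 0.297) for CHD6 and 0.39 (SE 0.291) for CHD9, the largest standard errors of the CHD genes. Leaving it out gave -0.21 for CHD6 and 0.05 for CHD9. CHD7, mutated in CHARGE syndrome, was barely detected, at 0.0767, 0.0988 and 0.0844 FPKM in ARID1B libraries, against 0.0558, 0.0561 and 0.0516 FPKM in vector libraries. Its ARID1B libraries were all above its vector libraries. It had 67 to 159 reads per library and was not tested, so it is not among the 8 members without overlap.

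INO80, SRCAP and EP400 are the split ATPases of large complexes that move nucleosomes or exchange the histone variant H2A.Z. INO80 was at 3.82, 3.09 and 3.73 FPKM in ARID1B libraries, against 3.42, 3.64 and 3.69 FPKM in vector libraries. EP400 was at 4.70, 3.88 and 4.50 FPKM in ARID1B libraries, against 5.25, 2.97 and 4.82 FPKM in vector libraries. SRCAP was at 4.55, 3.21 and 4.28 FPKM in ARID1B libraries, against 4.80, 2.81 and 4.44 FPKM in vector libraries. The groups of all 3 overlapped and the log2 changes were -0.01 for INO80, 0.03 for EP400 and 0.01 for SRCAP, while without vector replicate 2 that of INO80 was -0.01 and those of EP400 and SRCAP were each -0.17. How reads of near-identical copies or overlapping genes were assigned is not given in the sources used here, so the level of EP400, which lies beside the copy EP400NL, is uncertain.

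RUVBL1 and RUVBL2 form the AAA+ ring shared by these complexes and by a chaperone complex. RUVBL1 was at 5.66, 4.79 and 5.43 FPKM in ARID1B libraries, against 4.47, 7.49 and 4.91 FPKM in vector libraries. RUVBL2 was at 10.3, 6.69 and 8.71 FPKM in ARID1B libraries, against 7.59, 18.9 and 9.16 FPKM in vector libraries. Vector replicate 2 was the highest library for both, and for RUVBL2 the next was ARID1B replicate 1 at 10.3 FPKM. The changes were -0.05 (SE 0.186) for RUVBL1 and -0.35 (SE 0.333) for RUVBL2, and without that library 0.14 and 0.02.

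Ordered by their mean level per length, the ATPase genes were SMARCA1 (28.1 FPKM), CHD4 (22.6 FPKM), SMARCA5 (17.7 FPKM), CHD3 (16.1 FPKM), RUVBL2 (10.2 FPKM) and SMARCA4 (9.42 FPKM), followed by CHD8 (5.51 FPKM), RUVBL1 (5.46 FPKM), SMARCA2 (4.42 FPKM), EP400 (4.35 FPKM), CHD2 (4.31 FPKM), SRCAP (4.01 FPKM), INO80 (3.57 FPKM), CHD1 (2.69 FPKM), CHD6 (2.66 FPKM), CHD9 (2.25 FPKM) and CHD7 (0.0705 FPKM). In 14 of the 16 neighboring pairs of this order the ranges over the 6 libraries overlapped. The gaps without overlap were those between SMARCA4 and CHD8 and between CHD9 and CHD7. The gene lengths behind the deposited values exceeded the longest GENCODE transcript for 40 of the 42 members with reads (0.791 to 4.85 times), so the order depends on the length used. Per longest transcript SMARCA1 and CHD4 kept ranks 1 and 2, RUVBL2 was at rank 3 and SMARCA5 at rank 6. The median tested member was at 5.49 FPKM, and the median of all genes tested was 4.67 FPKM.

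Ratios of paired subunits were then compared within libraries, as the log2 ratio of (FPKM + 1). For genes well above 1 FPKM this largely removes the scaling of each library. For lower genes the added 1 draws the ratio toward 1 and the scaling is only partly removed. The ratios listed per library are of FPKM without the added 1. Of 16 pairs listed, 13 had both genes tested, and the groups did not overlap in 3 of these (beside 21.9% of the 780 pairs that can be formed from the tested members). The ratio of CHD6 to CHD9 was 1.07, 1.08 and 1.01 in ARID1B libraries, against 1.28, 1.51 and 1.40 in vector libraries. The ratio of SMARCA5 to SMARCA1 was 0.659, 0.640 and 0.650 in ARID1B libraries, against 0.606, 0.604 and 0.612 in vector libraries. For BCL7B to BCL7C it was 0.595, 0.721 and 0.584 in ARID1B libraries, against 0.527, 0.460 and 0.497 in vector libraries. Across all libraries the CHD6 to CHD9 ratio was lower in ARID1B cells, and the other two ratios were higher, with no overlap between groups. The mean differences on log2(FPKM + 1) were -0.24, 0.09 and 0.32. Each had p = 0.1 in the two-sided exact permutation test, the smallest p that 3 against 3 libraries allow, and 0.433 after adjustment over the 13 pairs. In the SMARCA5 to SMARCA1 ratio vector replicate 2 lay with the other vector libraries, although it stood apart in the levels of these genes. For CHD6 to CHD9 it had the highest ratio of FPKM (1.51). On the log2 ratio of (FPKM + 1), that pair was at 0.276 in it, beside 0.274 and 0.348 in vector replicates 1 and 3. Without vector replicate 2 there were 5 pairs with no overlap, with BAZ1A to BAZ1B and BAZ2A to BAZ2B added, both higher in ARID1B libraries. The share over all 780 pairs was not counted for that comparison. Fewer libraries separate more readily, as 42.7% of single genes did not overlap there, beside 20.5% with all libraries. No conclusion was drawn from the added pairs.

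**Figure D4:**
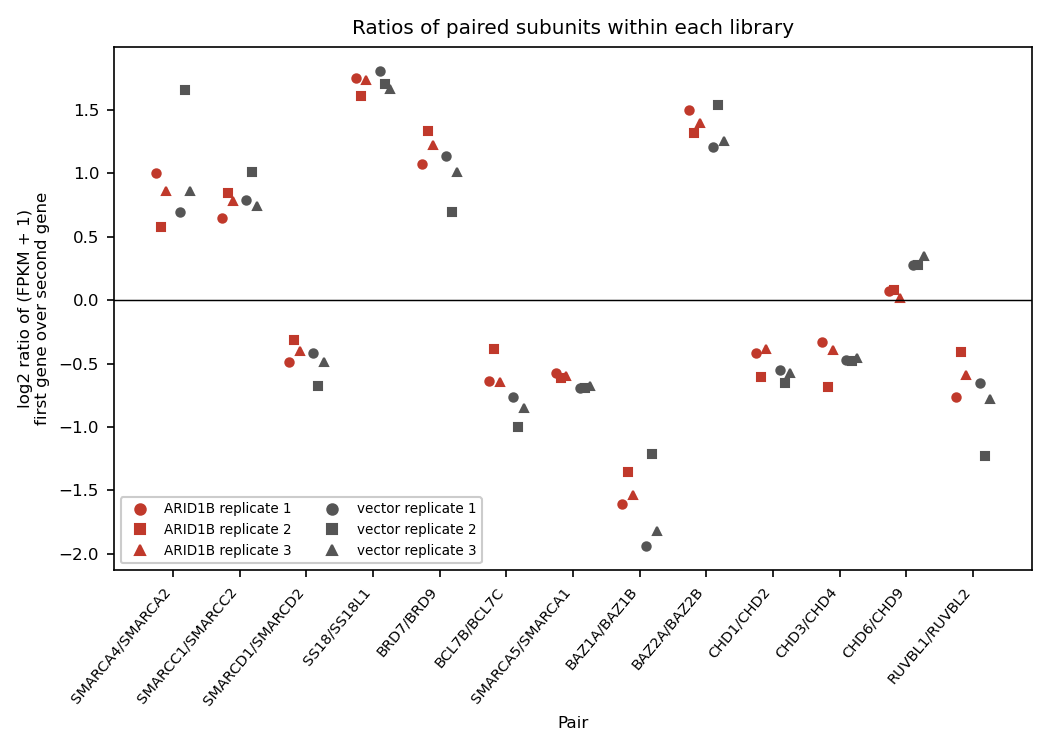
Log2 ratio of (FPKM + 1) of the first gene over the second for 13 pairs of subunits, in each ARID1B library (red, left of each position) and vector library (gray, right), with circles, squares and triangles for replicates 1, 2 and 3. The groups do not overlap for CHD6/CHD9, SMARCA5/SMARCA1 and BCL7B/BCL7C, and in the other 10 pairs they overlap.

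Vector replicate 2 was the highest or lowest of the 6 libraries for 34 of the 40 tested members (85%, beside 76.9% of all genes), the highest for 11 (39.5% of genes) and the lowest for 23 (37.5% of genes). Its deviation was related to transcript length. All 15 members with a longest GENCODE transcript of at least 7000 bases were below the mean of vector replicates 1 and 3 in it (median log2 difference -0.54), as were 11 of the 25 shorter members (median 0.09). That length was chosen after seeing the data, and INO80, at 6439 bases, was slightly above that mean (0.028). The shares of all genes on either side of that length were not counted, so no conclusion was drawn from the split. Across the 40 members Spearman's rho of this difference was -0.67 with length and 0.44 with GC content, beside -0.48 and 0.36 across 10195 genes with both values, and all points share the same 3 vector libraries. The 15 long members, which include BPTF, EP400, SRCAP and most CHD genes, had 12 positive changes with all libraries and 6 without vector replicate 2. After correction of each library for length and GC content, 0 members passed, beside 5 of 10195 genes, and the smallest limma adjusted p of a member was 0.243. At an unadjusted limma p under 0.05 there were 5 of 40 members, beside 992 of the 10195 genes. With this correction 11 members were above 0 and 29 below (median -0.09, beside -0.02 for all genes, of which 44.7% were above 0), and 12 turned direction.

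**Figure D5:**
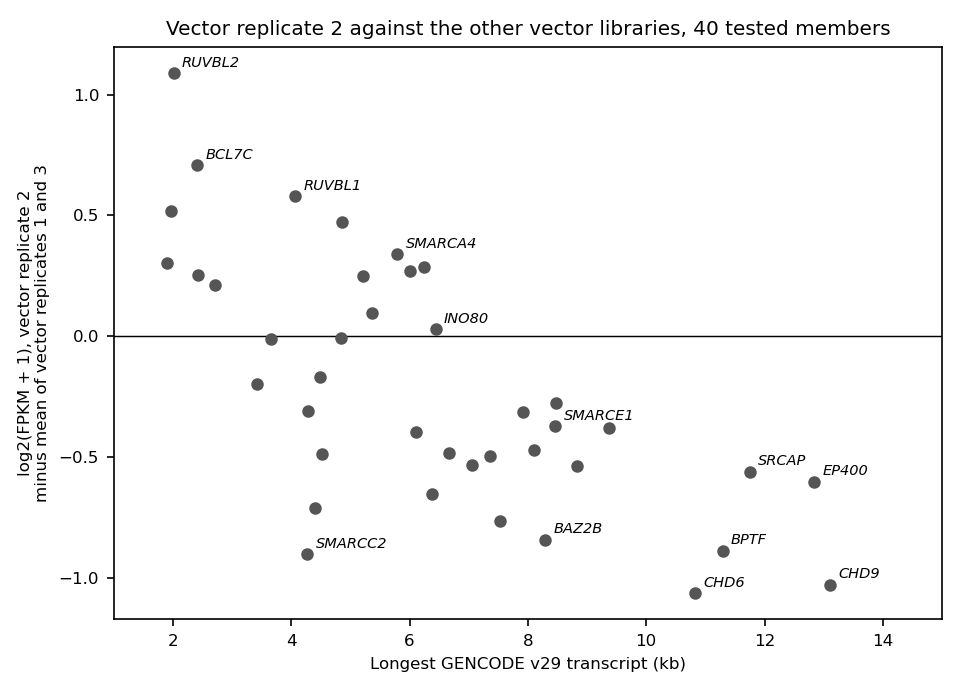
Difference of vector replicate 2 from the mean of vector replicates 1 and 3 on log2(FPKM + 1) (vertical axis) against the length of the longest GENCODE transcript in kb (horizontal axis), for the 40 tested members. All 15 members of at least 7000 bases, a length chosen after seeing the data, lie below 0. CHD6, CHD9 and BPTF are far below while RUVBL2 is highest.

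Over all 6 libraries the highest library was less than 1.5 times the lowest in 14 members and more than 2 times in 9, beside 33.5% and 33.2% of all genes.

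Other subunits of the same complexes, and a list of other SNF2-type ATPases, were counted as a frame for the members. Of 59 genes in 6 lists, 52 were tested, and ARID1B alone rose while none fell. Their changes were above 0 in 26 and below 0 in 26, with a median of -0.02, and without vector replicate 2 in 20 and 32, with a median of -0.03. Among the ARID and other SWI/SNF subunits 4 of 5 were above 0 (3 without vector replicate 2), and ARID1A, the alternative to ARID1B, averaged 3.62 FPKM in ARID1B and 3.21 FPKM in vector libraries (log2 change 0.15, limma adjusted p = 0.732). The ARID1A change was 0.01 without vector replicate 2. Of the 9 NuRD partners of CHD3 and CHD4, 1 was above 0 and 8 were below (median -0.14), with MTA1 at the smallest p (log2 change -0.24, limma adjusted p = 0.493). The NuRD partners had 2 above 0, a median of -0.04 and an MTA1 change of -0.19 without vector replicate 2. The INO80 complex partners had 3 of 9 above 0 (median -0.07), with INO80B at -0.29 (limma adjusted p = 0.467), and the SRCAP and TIP60 partners had 8 of 15 (median 0.01), with the acetyltransferase KAT5 at -0.34 (limma adjusted p = 0.497). Without vector replicate 2, 3 INO80 partners (median -0.07) and 5 SRCAP and TIP60 partners (median -0.05) were above 0, and INO80B and KAT5 were each at -0.19. The ISWI complex partners had 2 of 5 above 0 (median -0.07), or 2 of 5 without vector replicate 2 (median -0.01). Of the other SNF2-type ATPases 8 of 9 were above 0 (median 0.13), with TTF2 at 0.32 (limma adjusted p = 0.537), and none passed the threshold. Only 5 of these 9 were above 0 without vector replicate 2 (median 0.07), with TTF2 at 0.38.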

How the data were processed

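RNA-seq of 6 libraries, 3 of IMR90 cells with ARID1B cDNA and 3 with empty vector, was used as deposited by the submitters, with groups and replicate numbers from the sample titles. The authors deposited FPKM values per gene, made from stranded mRNA libraries. Tools listed in the submitters' processing notes, with no role given, are DESeq2, HTSeq 0.5.3p9 and TopHat2 2.0.11, the build being hg19, and the counting options are not given in the sources used here. Every column of per-library values was mapped, and 0 were left out.

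Genes whose mean over the 6 libraries was 1 FPKM or more (10416 of 57232) were compared as ARID1B minus vector on log2 values after adding 1 FPKM, with limma 3.58.1 in R 4.3.3 (moderated test with a variance trend) and Benjamini-Hochberg adjustment over all genes tested, at a threshold of 0.05. Fold changes on this scale understate the change of low genes. Whole reads were recovered for all 10416 genes (100%) within 0.002 reads from the steps of the FPKM values, which gave library totals and the reads behind each member. A common divisor of the 6 read numbers of a gene would make its recovered reads and length too small by that factor. The scripts were checked on simulated data. Ratios of paired subunits were compared with two-sided exact permutation tests (scipy 1.17.1, Python 3.11.15).

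Transcript length and GC content came from GENCODE 29 (GRCh38) by gene, and promoters from RefSeq (GRCh38.p14). No gene coordinates are given for the deposited values, since these use hg19. The alternatives were a pseudocount of 0.1, no filter, a filter at 5 FPKM, median-ratio and quantile scaling, no variance trend, the replicate block, correction for GC content and length by splines with 5 degrees of freedom, both together, limma voom on the recovered reads, leaving out each library, and leaving out both libraries numbered 3. Any member could be named. Values in each library are given for the ATPase genes and for members whose groups did not overlap or whose unadjusted p was under 0.05, and genes of other lists are named by the smallest p. The members and lists were chosen with earlier results of these data known. The length split at 7000 bases and the order per longest transcript were chosen after seeing the data.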

Additional observations from a re-analysis of the deposited data

How the results depend on the processing

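The count of members past the threshold was 0 in the main comparison and under all 17 alternatives, and the smallest adjusted p of any member was 0.0694. At an unadjusted limma p under 0.05 there were 0 to 10 members. That number was 0 with the replicate block, beside 604 of 10416 genes, and 10 without vector replicate 2, beside 23.7% of genes. In 19 members no alternative turned the direction, among them SMARCA4, SMARCB1, SMARCD1, SMARCD2, SMARCD3, DPF2, BAZ1A and CHD1, but the GC content and length correction made several of these smaller (CHD1 0.052 against 0.27 in the main comparison, BAZ1A 0.059 against 0.23, SMARCD2 -0.12 against -0.30 and SMARCA4 -0.18 against -0.30). The other 21 had turns, all of changes that did not pass the test, and the cause was not tested. With the GC content and length correction the log2 changes that turned were -0.0096 for ACTL6A, 0.14 for BCL7B, -0.086 for BRD7, -0.091 for SMARCA5, -0.11 for SMARCA1, -0.034 for BPTF, -0.032 for BAZ1B, -0.14 for BAZ2B, -0.00072 for CHD2, -0.0044 for CHD6, -0.022 for CHD8 and -0.0013 for EP400, and the same values were found with the replicate block added. Quantile normalization turned BAZ2B (-0.034) and SRCAP (-0.0098). Without both libraries numbered 3, the values that turned were 0.031 for SMARCA2, 0.0024 for SMARCC1 and -0.075 for ACTL6A. When 1 library was left out at a time, the log2 changes of members that turned had the ranges SMARCA2 -0.22 to 0.072, SMARCC1 -0.29 to 0.073, SMARCC2 -0.28 to 0.19, ACTL6A -0.061 to 0.10, BCL7B -0.20 to 0.084, DPF3 -0.24 to 0.013, SMARCA1 -0.071 to 0.11, BPTF -0.14 to 0.34 and BAZ1B -0.056 to 0.16, and for the others BAZ2A -0.037 to 0.24, BAZ2B -0.21 to 0.23, CHD6 -0.21 to 0.37, INO80 -0.059 to 0.059, EP400 -0.17 to 0.15, SRCAP -0.17 to 0.13, RUVBL1 -0.17 to 0.14 and RUVBL2 -0.59 to 0.018.

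The number of all genes past the threshold was 3 in the main comparison, 0 with no filter, 5 with the GC content and length correction, 1 with voom on recovered reads, 0 without both libraries numbered 3, and between 0 and 324 when 1 library was left out, with 324 reached without vector replicate 2. Of the other subunits and other SNF2-type ATPases listed, 1 passed in the main comparison, 0 with no filter, 0 without both libraries numbered 3, and 0 to 1 when 1 library was left out. Pairs of subunits with ratios that did not overlap numbered 3, and 3 to 6 when 1 library was left out. The share over all pairs was not counted with a library left out, so no conclusion was drawn from the larger numbers. Fewer libraries separate more readily, as 42.7% of single genes did not overlap without vector replicate 2, beside 20.5% with all libraries.

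The libraries share replicate numbers, and the deviations of same-numbered libraries from their group means had correlations of -0.46, -0.43 and -0.17, none of them positive. Vector replicate 2 stood apart and replicate 3 was close to a mixture of the others in its group. These correlations therefore cannot decide whether the numbers mark a shared batch. With the replicate block 0 members, 0 of all genes and 0 of the other subunits and SNF2-type ATPases passed. With the block and the GC content and length correction together the counts were again 0, 0 and 0. At an unadjusted limma p under 0.05 there were 0 of 40 members with the block, beside 604 of 10416 genes. With the block and the correction there were 2 of 40 members, beside 607 of 10195 genes. Counting error was small for the tested members, while CHD7 (67 to 159 reads per library) and DPF1 were below the filter.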
